A study of Mus musculus with 26 samples.

Results

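Endothelial cells were sorted from 16.113 tumours 120 h after the tumour-bearing mice had received tumour-specific T cells, and the expression values of 8 of the 26 arrays of the study belong to this experiment. In 3 arrays the transferred T cells were IFNγ+/+ and could make interferon gamma (competent). In the other 5 arrays the T cells were IFNγ-/- and could not (deficient). Both groups had the same kind of host, female Rag-/- mice aged 3-4 month that lack mature T cells and B cells of their own and carry the interferon gamma receptor on all cells, so the transferred cells were the T cells of these animals. Tumours had been grown to about 1 cm, digested with collagenase, DNAse and Dispase, and sorted for CD31+/CD146+ cells, and a small amount of their RNA was amplified for each array. As a comparison within the study, J558L tumours in Rag-/- mice aged 4-6 month were sampled after 24 h of an induced IFNγ-GFP fusion (3 arrays) and without induction, at 0 h (2 arrays). MCA313 tumours, induced to make IFNγ for 24 or 48 h (2 arrays each) or left at 0 h (3 arrays), grew in female PIG-Pdgfb-Cre-IFNγ-del mice aged 4-6 month, a transgenic line in which Pdgfb-Cre limits the IFNγ receptor to endothelium. Replicates are numbered in the labels, which do not say whether each came from its own animal, so p-values measure the spread between these samples.

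Interferon gamma is a cytokine that activated T cells release. It binds a receptor on neighbouring cells, and the signal reaches GAS elements in promoters. One of its early targets, Irf1, is itself a transcription factor that binds ISRE elements, and the response includes genes for GTPases, antigen presentation and cell-autonomous defence. In many cell types interferon gamma also slows the cell cycle, and in tumours the endothelium is one of the tissues that carries the receptor.

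All values are the deposited log2 values of 1 probe set per gene, and values of single arrays are given in replicate order. The values at hand covered a portion of the array's genes, nearly all on chromosomes 1, 10, 11, 12 and 13, and 4140 genes passed the filter on low values. The sort marker Pecam1, which encodes CD31, read 13.50, 13.47 and 13.55 in the competent arrays, against 13.46 to 13.65 in the deficient arrays, so the 2 groups overlapped at a high level. Of the 21 probe sets of Pecam1, 4 were higher and 17 lower in the competent arrays, with a median change of -0.25. Array medians over all probe sets were 5.77, 5.62 and 5.63 in the competent arrays, against 5.72 to 5.79 in the deficient arrays. Precision is set by how few arrays there are.

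Which genes differed between tumour endothelium exposed to competent and to deficient T cells was tested with the spread of these 8 arrays alone. In limma's test with Benjamini-Hochberg adjustment at 0.05, 33 of 4140 genes differed. Of these, 22 rose in the competent arrays (0.531% of the genes tested) and 11 fell (0.266%). Every competent array lay outside the range of the deficient arrays for all 33 genes. Over all genes, 154 had every competent array above every deficient array (3.72%) and 249 had every competent array below (6.01%), so groups without overlap were much more common than calls. The risers were led by Serpina3f, by interferon-inducible GTPases and by members of the Ifi200 family, and the genes that fell by Serpinb2, Cdc6 and Usp43. When each array was left out in turn, 11 genes were called in all 8 fits, and all 11 were risers. They were Serpina3f, Igtp, Irgm2, Gm12250, Irgm1, Ifi207, Mndal, Irf1, Wars, Nuak1 and Sp140. The calls of the other risers did not hold in every fit. Ifi205, Ifi211 and Serpinb9 were called in 2 of the 8 fits each, and Nampt in 1.

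**Figure D1:**
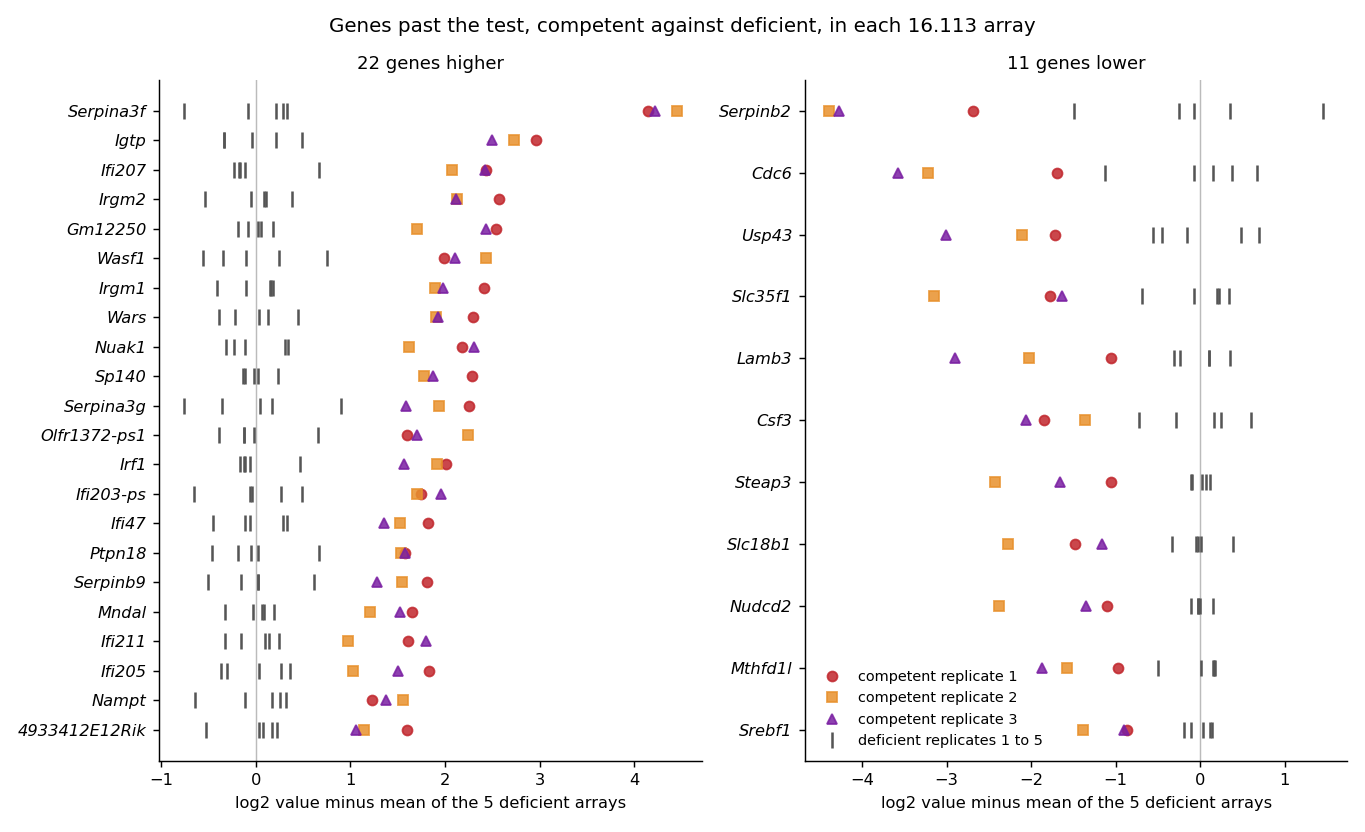
Each of the 33 genes past the test, 22 higher (left) and 11 lower (right), in each 16.113 array, as the log2 value minus the mean of the 5 deficient arrays. Coloured symbols are the 3 competent arrays and grey ticks the 5 deficient arrays; among risers the competent symbols lie close together, whereas among falls replicate 1 is often the nearest to the deficient arrays.

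The transcription factor Irf1 read 12.44, 12.35 and 11.99 in the competent arrays, against 10.26, 10.90, 10.31, 10.31 and 10.37 in the deficient arrays. All 3 competent arrays stood more than 1 log2 unit above the highest deficient array. The difference was 1.83 ± 0.21 (SE), a 3.56-fold rise, with an adjusted p of 0.00427 in limma, and all 17 probe sets of the gene were higher. Of the interferon signalling list, 11 members passed the filter and Irf1 was the only one called. Stat5b, a transcription factor of cytokine receptors, followed with 0.92 ± 0.18 and an adjusted p of 0.056 without overlap of the groups. Stat2, which acts in the response to type I interferons, differed by 0.72 ± 0.24 (adjusted p = 0.196). Ifngr1, a chain of the interferon gamma receptor, differed by -0.31 ± 0.20 (adjusted p = 0.507), and the feedback inhibitor Socs3 by 0.18 ± 0.19 (adjusted p = 0.711).

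Interferon-inducible GTPases of the IRG family, which attack the vacuoles of intracellular pathogens, were the most changed list. Of 6 members kept, 4 rose, none fell and the median change was 2.16, beside -0.03 over all genes. Igtp read 12.93, 12.70 and 12.47 in the competent arrays, against 9.63, 10.46, 9.93, 9.64 and 10.19 in the deficient arrays. Every competent array exceeded the highest deficient array by more than 2 log2 units, and the change was 2.73 ± 0.24 (adjusted p = 0.00179). Irgm2 read 11.63, 11.18 and 11.17 in the competent arrays, against 8.52 to 9.44 in the deficient arrays, a change of 2.27 ± 0.24 (adjusted p = 0.00261). Gm12250 read 10.46, 9.62 and 10.35 in the competent arrays, against 7.73 to 8.10 in the deficient arrays, a change of 2.23 ± 0.23 (adjusted p = 0.00261). Irgm1, a regulator of the other GTPases, read 11.48, 10.97 and 11.05 in the competent arrays, against 8.67 to 9.26 in the deficient arrays, a change of 2.09 ± 0.22 (adjusted p = 0.00261). Competent replicate 1 was the highest of the 3 competent arrays for all 6 members. The remaining 2 members, Gm5431 and 9930111J21Rik2, differed by 1.67 ± 0.52 and 1.02 ± 0.54 (adjusted p = 0.175 and 0.422). Ifi47, another IRG GTPase that is not in the list, rose by 1.57 ± 0.23 (adjusted p = 0.0177). These genes are close relatives, and a probe set may read more than one of them.

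Promoters of 7 risers are shown because the interferon gamma signal and Irf1 are known to act through promoter elements. RefSeq promoters of the GRCm38.p6 build, from 250 bases before the start of the gene to 50 after it, were matched by symbol to 19 of the 22 risers and 9 of the 11 genes that fell. They were searched on both strands for the GAS element, spelled TTCNNNGAA, and for the ISRE core, spelled as GAAA repeated after any 2 bases. A GAS match was present in 6 of the 19 risers and an ISRE match in 9, of which 3 held both, against 1 and 0 of the 9 genes that fell. Among 32851 mouse promoters a GAS match was present in 8.3%, an ISRE match in 3.44% and both in 0.45%. These shares are per promoter, whereas a called gene counted if any of its listed start sites held a match. In no promoter of a riser did a GAS match overlap an ISRE match. A match is a description of the letters and does not show that a factor bound there. Below, matches are in capitals and each sequence runs 5′ to 3′ on the strand of its gene. For Irf1 and Serpina3f, with 2 listed start sites each, the one with the most matches is shown.
Irf1: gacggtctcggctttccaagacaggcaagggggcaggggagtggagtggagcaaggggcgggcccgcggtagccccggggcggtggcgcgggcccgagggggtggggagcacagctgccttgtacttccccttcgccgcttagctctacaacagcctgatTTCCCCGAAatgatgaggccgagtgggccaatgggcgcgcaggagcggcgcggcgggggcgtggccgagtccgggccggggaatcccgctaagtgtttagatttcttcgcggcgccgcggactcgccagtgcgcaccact
Igtp: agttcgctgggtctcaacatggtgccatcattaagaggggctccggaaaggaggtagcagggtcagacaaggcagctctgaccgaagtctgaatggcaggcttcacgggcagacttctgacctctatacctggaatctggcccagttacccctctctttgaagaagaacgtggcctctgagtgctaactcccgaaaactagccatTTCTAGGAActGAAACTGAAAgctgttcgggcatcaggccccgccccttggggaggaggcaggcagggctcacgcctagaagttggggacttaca
Irgm2: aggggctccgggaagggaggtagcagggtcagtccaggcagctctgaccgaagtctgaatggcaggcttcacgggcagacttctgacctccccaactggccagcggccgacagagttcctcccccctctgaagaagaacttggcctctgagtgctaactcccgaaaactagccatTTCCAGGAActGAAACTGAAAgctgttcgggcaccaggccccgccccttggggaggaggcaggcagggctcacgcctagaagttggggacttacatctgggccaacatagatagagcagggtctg
Gm12250: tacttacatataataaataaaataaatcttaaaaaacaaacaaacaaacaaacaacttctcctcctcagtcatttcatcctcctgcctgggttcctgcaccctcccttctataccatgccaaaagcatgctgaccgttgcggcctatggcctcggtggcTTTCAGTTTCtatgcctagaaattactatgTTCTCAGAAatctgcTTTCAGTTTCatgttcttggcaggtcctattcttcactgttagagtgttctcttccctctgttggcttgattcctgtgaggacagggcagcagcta
Irgm1: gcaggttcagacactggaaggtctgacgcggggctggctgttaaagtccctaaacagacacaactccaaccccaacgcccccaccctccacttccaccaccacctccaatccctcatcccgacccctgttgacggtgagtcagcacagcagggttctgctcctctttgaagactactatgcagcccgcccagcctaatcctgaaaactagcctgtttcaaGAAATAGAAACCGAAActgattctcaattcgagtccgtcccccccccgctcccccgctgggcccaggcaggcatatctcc
Serpina3f: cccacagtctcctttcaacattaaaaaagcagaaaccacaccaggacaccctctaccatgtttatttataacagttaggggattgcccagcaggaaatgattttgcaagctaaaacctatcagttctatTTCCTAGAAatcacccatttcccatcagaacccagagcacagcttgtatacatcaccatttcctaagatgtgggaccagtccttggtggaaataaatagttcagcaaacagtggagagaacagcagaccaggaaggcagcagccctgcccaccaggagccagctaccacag
Serpina3g: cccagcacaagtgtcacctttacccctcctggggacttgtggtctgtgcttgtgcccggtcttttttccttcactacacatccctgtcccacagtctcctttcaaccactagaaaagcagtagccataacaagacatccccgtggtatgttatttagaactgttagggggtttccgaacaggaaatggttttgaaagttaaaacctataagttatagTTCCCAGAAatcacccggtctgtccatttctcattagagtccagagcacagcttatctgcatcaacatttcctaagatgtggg
The Irf1 promoter (chr11:53769764-53770063, plus strand) had 1 GAS match, 90 bases before the start, and no ISRE match. Igtp (chr11:58199306-58199605, plus strand) and Irgm2 (chr11:58214727-58215026, plus strand) each had a GAS match shortly before an ISRE match, beginning 45 and 34 bases before the start in Igtp and 75 and 64 bases in Irgm2. The 2 promoters share an unbroken run of 61 bases. Gm12250 (chr11:58183593-58183892, plus strand), the gene before Igtp on the chromosome, had 1 GAS match 61 bases before the start and ISRE matches 91 and 46 bases before it, in the other orientation. Irgm1 (chr11:48871371-48871670, minus strand) had no GAS match and 2 overlapping ISRE matches, 30 and 24 bases before the start. Serpina3f (chr12:104214294-104214593, plus strand) and Serpina3g (chr12:104235897-104236196, plus strand) each had 1 GAS match, 121 and 33 bases before the start.

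The Serpina3 genes encode serine protease inhibitors, of which mice carry a large cluster on chromosome 12. Serpina3f read 11.92, 12.23 and 11.99 in the competent arrays, against 8.07, 8.11, 7.69, 7.02 and 7.98 in the deficient arrays. It showed the greatest change of all 33 genes, 4.27 ± 0.27 or 19.3-fold (adjusted p = 0.000171), and its competent values were within 0.31 of each other. Its neighbour Serpina3g read 11.93, 11.62 and 11.27 in the competent arrays, against 9.32, 9.72, 9.86, 8.92 and 10.58 in the deficient arrays. The competent arrays were above all deficient arrays, the highest of which was replicate 5, and the change was 1.93 ± 0.35 (adjusted p = 0.0445). The call held in 1 of the 8 fits with an array left out, and the highest adjusted p among them was 0.117. The other 8 of the 10 Serpina3 genes kept had changes from -0.37 to 0.56 and none was called. A probe set of one Serpina3 gene may read others of the cluster.

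The Ifi200 family on chromosome 1 encodes interferon-induced nuclear and DNA-binding proteins. Of 11 members kept 4 rose, none fell and 6 had every competent array above every deficient array, with a median change of 1.46. Ifi207 read 10.89, 10.53 and 10.89 in the competent arrays, against 8.24, 9.14, 8.30, 8.29 and 8.35 in the deficient arrays, a change of 2.31 ± 0.25 (adjusted p = 0.00261). The competent values were all more than 1 unit above deficient replicate 2, which stood above the other deficient arrays. Mndal rose by 1.46 ± 0.20 (adjusted p = 0.0114), Ifi211 by 1.46 ± 0.24 (adjusted p = 0.0324) and Ifi205 by 1.46 ± 0.26 (adjusted p = 0.0399). The pseudogene Ifi203-ps of the same locus, which was not in the list, rose by 1.80 ± 0.26 (adjusted p = 0.0169). Ifi203 and Ifi206 differed by 2.10 ± 0.47 and 1.77 ± 0.42, also without overlap, with adjusted p-values of 0.0753 and 0.0874. Aim2, the sensor of cytosolic DNA in this family, did not follow, with 9.43, 8.12 and 8.54 in the competent arrays, against 9.26 to 9.83 in the deficient arrays (adjusted p = 0.258). Members of the family are near-identical in places, and a probe set may read several.

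Single members of other groups also rose. Sp140, a nuclear body protein of immune cells, read 10.63, 10.12 and 10.22 in the competent arrays, against 8.22 to 8.59 in the deficient arrays, a change of 1.98 ± 0.19 (adjusted p = 0.00261), and was the 1 of 4 Sp100 family genes called. Wars, the tryptophanyl-tRNA synthetase, read 13.65, 13.26 and 13.28 in the competent arrays, against 10.96 to 11.80 in the deficient arrays, a change of 2.04 ± 0.23 (adjusted p = 0.00351). Nuak1, an AMPK-related kinase, read 11.23, 10.68 and 11.36 in the competent arrays, against 8.73 to 9.40 in the deficient arrays, a change of 2.04 ± 0.24 (adjusted p = 0.00494). In these 3 genes no competent array came near the deficient range, and all 12 probe sets of Nuak1 and 12 of the 13 of Wars were higher. Nampt, the rate-limiting enzyme of NAD salvage, rose by 1.39 ± 0.25 (adjusted p = 0.04) and was the 1 of 8 metabolic genes called. Serpinb9, an inhibitor of granzyme B, rose by 1.54 ± 0.26 (adjusted p = 0.0358), and the phosphatase Ptpn18 by 1.56 ± 0.25 (adjusted p = 0.0324). The lncRNA 4933412E12Rik rose by 1.27 ± 0.23 and the pseudogene Olfr1372-ps1, read by 1 probe set, by 1.84 ± 0.27 (adjusted p = 0.0445 and 0.0169). Wasf1, an actin regulator, rose by 2.18 ± 0.30 (adjusted p = 0.0125), but 4 of its 10 probe sets were higher and 6 lower and its deficient mean lay below the array medians, so the size is uncertain. In the annotation Nampt overlaps Gdap10, Wars overlaps Wdr25 and Sp140 overlaps Sp110, and probe sets in such stretches cannot be assigned to one gene with certainty.

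No member was called in the Schlafen, antiviral and chemokine lists. Among the Schlafen genes, growth regulators of lymphocytes and other cells, 8 of 9 had a positive change, with a median of 0.75. The most separated were Slfn5, at 0.95 ± 0.21, and Slfn2, at 0.88 ± 0.19 (adjusted p = 0.0701 and 0.0667). Of 7 antiviral genes kept 6 had a positive change, with a median of 0.46. The RNA sensor Dhx58 had the largest, 1.10 ± 0.34 (adjusted p = 0.175). In contrast Ifi27 read 11.54, 11.88 and 10.78 in the competent arrays, against 11.97 to 12.22 in the deficient arrays (adjusted p = 0.249). Of 12 chemokines 9 had a negative change. Ccl5, which recruits T cells, read 11.56, 12.10 and 10.54 in the competent arrays, against 9.66 to 10.40 in the deficient arrays, a difference of 1.30 ± 0.34 (adjusted p = 0.122).

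The 11 genes that fell did not belong to one listed group. Serpinb2, the plasminogen activator inhibitor PAI-2, read 5.77, 4.07 and 4.18 in the competent arrays, against 9.91, 8.81, 8.39, 6.97 and 8.21 in the deficient arrays. The change was -3.78 ± 0.62 (adjusted p = 0.0324), but the competent mean lay below the array medians, so the size is uncertain. Serpinb2 exceeded the array median in the 5 deficient arrays only and passed the filter through them. Cdc6, which loads the replicative helicase onto DNA, read 8.35, 6.82 and 6.46 in the competent arrays, against 9.97, 10.19, 10.42, 10.72 and 8.91 in the deficient arrays, a change of -2.83 ± 0.49 (adjusted p = 0.039). Replicate 1 was the highest of the competent arrays in both genes. Lamb3, a laminin chain of epithelial basement membranes, read 9.44, 8.46 and 7.59 in the competent arrays, against 10.18 to 10.84 in the deficient arrays, a change of -1.99 ± 0.37 (adjusted p = 0.0471). Csf3, the granulocyte growth factor G-CSF, read 9.09, 9.58 and 8.88 in the competent arrays, against 10.21 to 11.54 in the deficient arrays, a change of -1.76 ± 0.31 (adjusted p = 0.04). For Csf3 it was replicate 2 that lay nearest to the deficient arrays. Srebf1, a master regulator of lipid synthesis, fell by 1.05 on the log2 scale and Mthfd1l, a mitochondrial enzyme of folate metabolism, fell by 1.47 (adjusted p = 0.0471 and 0.039). The fall of Srebf1 rests on the probe set that stood for it, since 12 of its 26 probe sets were higher and 14 lower, with a median of -0.14. The deubiquitinase Usp43 fell by 2.27 and Slc35f1, of a family of nucleotide sugar transporters, fell by 2.18 (adjusted p = 0.0349 and 0.0384). Steap3, an iron reductase, Slc18b1, a polyamine transporter, and Nudcd2 fell by 1.72, 1.64 and 1.61 (adjusted p = 0.0324, 0.0356 and 0.039). The competent mean of Steap3 lay below the array medians, and with the probe set highest over all 26 arrays its change was 0.77 (adjusted p = 0.473). None of the 11 was called in every fit with an array left out.

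What separates the 3 competent arrays from each other was described without a test. Replicate 1 lay close to the deficient arrays, with Pearson's r over the 4140 genes of 0.941 to 0.947 with them, whereas replicate 2 had 0.898 to 0.908 and replicate 3 had 0.876 to 0.889. Pairs of competent arrays had 0.882 to 0.921, and pairs of deficient arrays 0.946 to 0.963. These are correlations across genes, which are not independent replicates. Replicate 1 had 130 genes more than 1 log2 unit above the deficient mean and 104 below it. Replicate 2 had 202 above and 360 below, and replicate 3 had 272 above and 484 below. The deficient arrays, each read against the mean of the other 4, had 73 to 97 above and 62 to 181 below. Genes below the deficient mean thus set replicates 2 and 3 apart more than genes above it. Probe sets not assigned to a single gene had a median absolute deviation of 0.31, 0.39 and 0.44 in the competent arrays, against 0.31 to 0.36 in the deficient arrays. The array weights of limma were 0.94, 0.80 and 0.45 in the competent arrays, against 0.94 to 1.83 in the deficient arrays. The part of array or RNA quality in these differences was not tested. On the first principal component, with 33.3% of the variance, replicate 1 scored -1.11, replicate 2 scored -19.9 and replicate 3 scored -41.4, against 10.6 to 14.7 in the deficient arrays. The second component, with 21.4%, set replicate 2 (35.9) against replicate 3 (-21.9). Serpina3f, Igtp, Cradd and Pik3ip1 had the largest loadings at the end of the first component where the competent arrays lay, and Gulp1, Slc25a10, Dtl and Exo1 at the other.

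**Figure D2:**
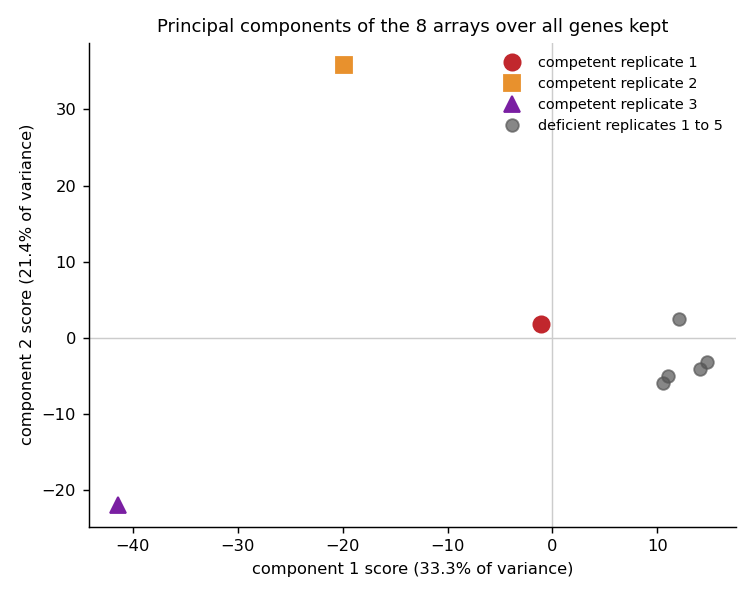
Scores of the 8 arrays on the first and second principal components over all genes kept, with the share of variance in the axis labels. Competent replicate 1 lies next to the 5 deficient arrays, and replicates 2 and 3 lie far from them and at opposite ends of the second component.

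The interferon genes did not separate the competent arrays this way. The mean level of the 6 GTPases was 10.97, 10.38 and 9.96 in the competent arrays, against 8.23 to 8.60 in the deficient arrays. That of the 11 Ifi200 genes was 10.01, 9.19 and 9.73 in the competent arrays, against 8.12 to 8.78 in the deficient arrays. In both groups all 3 competent arrays were above every deficient array, and replicate 1, the array otherwise nearest to the deficient ones, had the highest mean. Replicate 1 was the highest of the competent arrays in 6 of 6 GTPases and 8 of 11 Ifi200 genes, beside 1374 of all 4140 genes.

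By mean level, genes of S phase separated replicate 1 from the other competent arrays. Their products copy DNA and supply its building blocks, and 19 of the listed genes were kept, of which 15 had a negative change and only Cdc6 was called. The mean level of the 19 was 8.99, 8.15 and 7.82 in the competent arrays, against 9.17 to 9.63 in the deficient arrays. Dtl, an adaptor of the ubiquitin ligase that acts during replication, read 9.56, 5.62 and 5.83 in the competent arrays, against 10.06, 11.03, 10.15, 10.24 and 10.31 in the deficient arrays. Replicate 1 thus lay just below the deficient range while replicates 2 and 3 lay more than 4 units below it. The difference over all 3 was -3.35 ± 0.78 (adjusted p = 0.0811), and without replicate 1 it was -4.63 with an adjusted p of 6e-04. Exo1, a DNA exonuclease, read 7.08, 5.77 and 3.19 in the competent arrays, against 8.04 to 8.88 in the deficient arrays. Rrm2, the small subunit of ribonucleotide reductase, read 8.91, 7.14 and 7.27 in the competent arrays, against 9.18 to 10.01 in the deficient arrays. E2f7, a repressor of the E2F family, read 10.01, 8.59 and 8.79 in the competent arrays, against 10.47 to 10.70 in the deficient arrays. In each of these genes replicate 1 was the highest competent array and still below the deficient range. Prim1, a DNA primase subunit, read 9.75, 8.22 and 7.44 in the competent arrays, against 9.38 to 10.39 in the deficient arrays, so that replicate 1 lay inside the deficient range. Without replicate 1, 8 of the 19 genes fell (Dtl, Exo1, Cdc6, Brca1, Rrm2, E2f7, Prim1 and Mcm6), beside 111 of all 4140 (2.68%). That fit favours genes low in replicates 2 and 3, so its calls and p-values do not test what separates replicate 1. The median deviation of the 19 genes from the deficient mean was -0.39, -0.85 and -1.64 in competent replicates 1, 2 and 3. In the same order 11, 14 and 13 of them lay below the deficient range, beside 19.3%, 25.8% and 28.7% of all genes. Replicates 2 and 3 also deviated more over all genes. The median absolute deviation from the deficient mean was 0.26, 0.36 and 0.45 in replicates 1, 2 and 3. Whether the S phase genes separate replicate 1 beyond this was not tested. These genes were named after their values had been seen.

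Among genes of mitosis a subset separated replicate 1. Of 19 kept 13 had a negative change and 0 were called, with 8.96, 8.20 and 8.24 as their mean level in the competent arrays, against 9.07 to 9.47 in the deficient arrays. The median deviation of the 19 from the deficient mean was -0.43, -0.33 and -0.66 in competent replicates 1, 2 and 3. In the same order 10, 10 and 11 of them lay below the deficient range, beside 19.3%, 25.8% and 28.7% of all genes. By these measures replicate 1 was no closer to the deficient arrays than replicate 2. Top2a, the topoisomerase that untangles replicated chromosomes, read 10.94, 7.47 and 8.07 in the competent arrays, against 11.52, 12.35, 12.41, 11.83 and 11.78 in the deficient arrays. Replicate 1 was about 3 units above the other competent arrays and close to the lowest deficient array. The difference was -3.15 ± 0.67 (adjusted p = 0.0667), and -4.21 without replicate 1 (adjusted p = 8e-04). Hmmr, a spindle protein, read 7.47, 5.6 and 5.55 in the competent arrays, against 7.53 to 8.24 in the deficient arrays. Cdk1, the kinase that starts mitosis, read 9.71, 8.29 and 7.68 in the competent arrays, against 9.88 to 10.68 in the deficient arrays. Birc5, of the chromosomal passenger complex, read 8.47, 6.71 and 7.12 in the competent arrays, against 8.84 to 9.35 in the deficient arrays. In these 3 genes too replicate 1 was nearest to the deficient arrays, and all 3 fell without it (adjusted p = 0.0029, 0.0044 and 0.0036), as did Top2a and Spdl1. These calls come from the fit that favours genes low in replicates 2 and 3, and do not test what separates replicate 1. Replication-dependent histone genes, transcribed in S phase, had no common direction. Of 6 kept 3 had a positive and 3 a negative change and none was called, with a mean level of 7.79, 7.22 and 8.40 in the competent arrays, against 7.64 to 8.56 in the deficient arrays. H2bc3 read 10.55, 8.98 and 8.87 in the competent arrays, against 10.96 to 11.55 in the deficient arrays, whereas H4c8 read 4.92, 7.74 and 7.43 in the competent arrays, against 3.14 to 7.07 in the deficient arrays. Not every cycle gene took part. Cenpf read 8.24, 8.08 and 8.20 in the competent arrays, against 7.72 to 8.79 in the deficient arrays, and Timeless read 12.56, 12.23 and 12.60 in the competent arrays, above 11.41 to 11.77 in the deficient arrays (adjusted p = 0.065). In sorted cells measured in bulk, fewer cycling cells and less of these transcripts per cell cannot be told apart. The part of array or RNA quality in the lower values of replicates 2 and 3 was not tested.

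**Figure D3:**
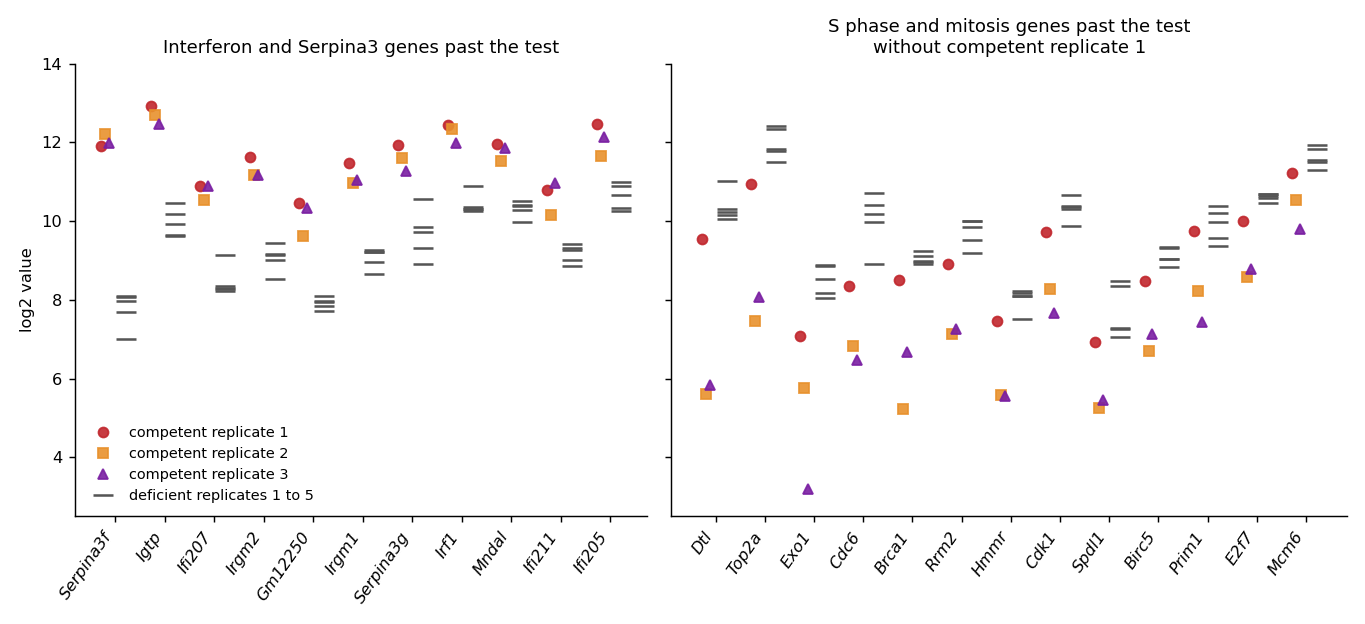
Log2 values of 11 interferon and Serpina3 genes past the test (left) and of the 13 S phase and mitosis genes past the test without competent replicate 1 (right), with coloured symbols for the 3 competent arrays and grey bars for the 5 deficient arrays. On the left all competent arrays lie above the deficient arrays. On the right the genes were chosen by replicates 2 and 3, which therefore lie low. Replicate 1 lies nearer to the deficient arrays than these 2 in most of the genes on the right.

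All probe sets of a gene whose mean exceeded the average array median were read as well. Over the 19 S phase genes the median deviation from the deficient mean was -0.32, -1.0 and -0.89 in the competent arrays, against -0.22 to 0.11 in the deficient arrays. Over the 19 mitosis genes it was -0.48, -0.72 and -0.97 in the competent arrays, against -0.20 to 0.21 in the deficient arrays. Replicate 1 was thus below every deficient array in both groups, by less than replicates 2 and 3, whose own order differed between the groups and from that of the mean levels. The 6 GTPases had medians of 2.73, 2.25 and 1.99 in the competent arrays, against -0.32 to 0.18 in the deficient arrays.

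**Figure D4:**
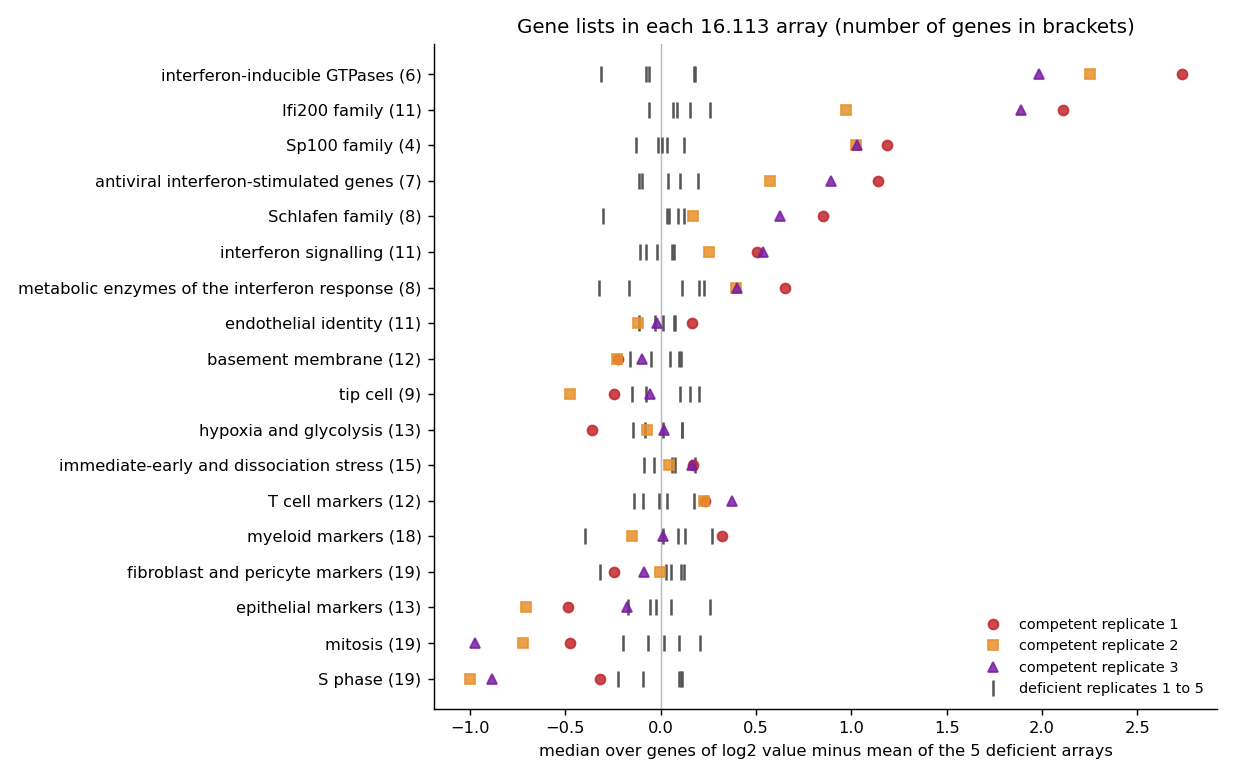
Median over the genes of each list of the log2 value minus the mean of the 5 deficient arrays, from all probe sets whose mean exceeds the average array median, with coloured symbols for the 3 competent arrays and grey ticks for the 5 deficient arrays. Interferon groups lie to the right in all 3 competent arrays, S phase and mitosis to the left, most so in replicates 2 and 3, and endothelial identity near 0.

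Each competent array was then read in the genes that had been called without it, in fits that shared the deficient arrays. Without replicate 1, 38 genes were higher and 111 lower. In the 38, replicate 1 deviated from the deficient mean by a median of 1.42, beside 1.65 for the mean of the other competent arrays, and lay above all deficient arrays in 26. In the 111 its median was -0.54, beside -1.86, and it lay below all deficient arrays in 65. Over all genes it lay above all deficient arrays in 619 of 4140 and below them in 799. In these genes replicate 1 stood near the other competent arrays in the rises and closer to the deficient arrays in the falls. The genes were chosen by the other competent arrays, which favours larger deviations there than in the array left out. Without replicate 2, 17 genes were higher and 5 lower, and replicate 2 deviated by medians of 1.77 and -0.74, beside 2.11 and -1.56. Without replicate 3, 13 genes were higher and 2 lower, and replicate 3 deviated by medians of 1.98 and -2.81, beside 2.10 and -1.83.

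**Figure D5:**
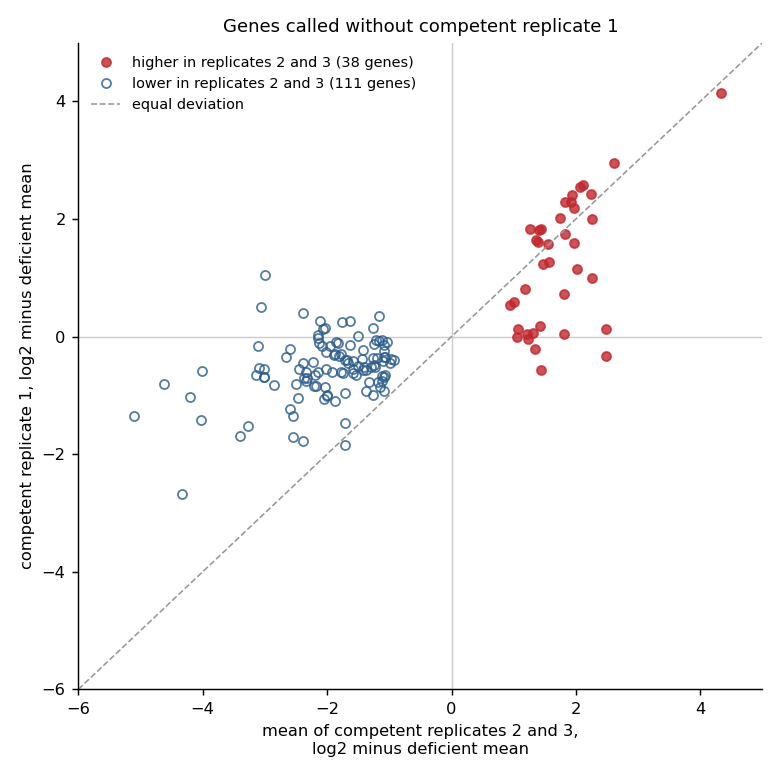
The 149 genes called without competent replicate 1, with the mean deviation of competent replicates 2 and 3 from the deficient mean on the horizontal axis and that of replicate 1 on the vertical axis, in log2 units. Genes higher in replicates 2 and 3 (filled, 38) mostly lie near the line of equal deviation, and genes lower (open, 111) lie well above it, closer to 0 in replicate 1. The genes were chosen by replicates 2 and 3, which favours larger deviations on the horizontal axis.

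Other genes set single competent arrays apart. Arhgap44, a GTPase-activating protein, read 9.32 in competent replicate 1 and 11.76 and 11.59 in replicates 2 and 3, against 8.81 to 9.86 in the deficient arrays. Gulp1, an adaptor in the engulfment of dying cells, read 8.0 in replicate 1 and 4.31 and 4.22 in replicates 2 and 3, against 8.53 to 9.95 in the deficient arrays. Taf1b, of the polymerase I initiation complex, read 3.99 in replicate 2 and 9.73 and 10.62 in replicates 1 and 3, against 9.49 to 10.38 in the deficient arrays. It had the widest range of any gene kept, 6.62, beside a median range of 0.703 over all genes. Flrt2, a guidance receptor, read 4.02 in replicate 3 and 9.43 and 9.75 in replicates 1 and 2, against 9.07 to 10.52 in the deficient arrays. Taf1b in replicate 2 and Flrt2 in replicate 3 were thus far below the other 7 arrays. Where the other 2 competent arrays were within 0.5 of each other, 93 genes were over 1 unit higher and 102 lower in replicate 1. The same counts were 41 and 129 in replicate 2, and 77 and 193 in replicate 3.

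The other probe sets of these genes shared such deviations in part. They did so for Dtl, whose 13 other probe sets were a median of 1.65 higher in replicate 1 than in the other competent arrays, for Top2a (23 probe sets, 1.54) and for Birc5 (4 probe sets, 1.93). For Gulp1 the 6 other probe sets had a median of -0.07, for Arhgap44 the 10 others had 0.37 where its own probe set was 2.36 lower, and for Rrm2 the 6 others had -0.35. Taf1b in replicate 2 had -1.44 over 12 others and Flrt2 in replicate 3 had -0.79 over 3 others, both smaller than the drop of the probe set that stood for the gene. Of the genes over 1 unit lower in replicate 3 that had at least 2 other probe sets, 44 of 153 were also over 1 unit lower by the median of those (28.8%). The same held for 12 of 96 in replicate 2 (12.5%) and 0 of 58 in replicate 1. Of the genes over 1 unit higher in replicate 1 it held for 13 of 70 (18.6%).

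Markers of other cell types in these arrays were read beside the cycle genes. Of 13 epithelial markers kept 1 fell, Lamb3, and their mean level was 7.56, 7.55 and 7.73 in the competent arrays, against 8.0 to 8.31 in the deficient arrays. Krt14, a keratin of basal epithelium, read 7.33, 4.85 and 3.92 in the competent arrays, against 7.0 to 7.99 in the deficient arrays, so replicate 1 lay inside the deficient range and replicates 2 and 3 below it. Krt19, a keratin of simple epithelium, read 9.48, 7.69 and 8.93 in the competent arrays, against 9.74 to 10.43 in the deficient arrays. The list was mixed, with 9 negative and 4 positive changes. Its median deviation from the deficient mean was -0.58, -0.41 and 0.05 in competent replicates 1, 2 and 3, so replicate 1 was the lowest by this measure. In the same order 9, 5 and 4 of the 13 genes lay below the deficient range, beside 19.3%, 25.8% and 28.7% of all genes. From all probe sets above the average array median, the median deviation was -0.49, -0.71 and -0.18 in the competent arrays. The deficient arrays had -0.17 to 0.26, and replicate 2 was then the lowest. Krt10, a keratin of differentiated epidermis, read 6.44, 8.19 and 9.27 in the competent arrays, against 7.49 to 8.05 in the deficient arrays. Without replicate 1 Lamb3, Krt14 and Krt19 fell (adjusted p = 0.0044 for Lamb3 and Krt14 and 0.0373 for Krt19), as 8 S phase and 5 mitosis genes did. The fit without replicate 1 favours genes low in replicates 2 and 3. The part of epithelial cells in the result was not tested. Epcam, Cdh1, Krt8 and Krt18 were not analysed here, and log2 intensities have no 0. Of 14 T cell markers kept none was called and 13 had a positive change, with a mean level of 7.27, 7.01 and 7.19 in the competent arrays, against 6.52 to 6.95 in the deficient arrays. Perforin (Prf1), of the cytotoxic granules of T cells, read 6.18, 6.87 and 6.18 in the competent arrays, against 4.86 to 5.57 in the deficient arrays (adjusted p = 0.0771). It exceeded the array median in the 3 competent arrays only and passed the filter through them. The size and separation are therefore uncertain for Prf1. The list's count of positive changes and its mean levels include Prf1, so their separation between the groups is uncertain as well. Ifng itself was below the filter, and Cd3e and Cd8a were not analysed here. Of 18 myeloid markers none was called, and their mean level was 7.84, 7.45 and 7.12 in the competent arrays, against 6.91 to 7.93 in the deficient arrays. The part of T cells in the interferon genes was not tested.

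No gene of endothelial identity was called. Of 12 genes kept 6 had a positive and 6 a negative change, and the median was -0.01. Their mean level was 10.76, 10.65 and 10.33 in the competent arrays, against 10.66 to 10.84 in the deficient arrays, so that replicate 3 was the lowest of the 8 arrays. From all probe sets above the average array median this did not hold. The median deviation was then 0.16, -0.12 and -0.02 in the competent arrays, against -0.11 to 0.07 in the deficient arrays. Icam2, an adhesion molecule of resting endothelium, read 11.52, 11.48 and 11.06 in the competent arrays, against 10.97 to 11.55 in the deficient arrays. The connexin Gja1 read 10.81, 10.67 and 10.59 in the competent arrays, below 11.09 to 11.49 in the deficient arrays (adjusted p = 0.172). Basement membrane genes had a negative change in 10 of 12, with a median of -0.27. Apart from Lamb3 the most changed was Col18a1, which read 12.84, 12.56 and 12.88 in the competent arrays, against 13.12 to 13.46 in the deficient arrays (adjusted p = 0.273). Tip cell genes, which mark the leading cells of a growing vessel, had a negative change in 8 of 9, with a median of -0.30. The guidance receptor Unc5b read 10.10, 10.02 and 10.07 in the competent arrays, against 10.48 to 11.09 in the deficient arrays (adjusted p = 0.111). E-selectin (Sele), the leukocyte receptor of activated endothelium, read 11.95, 10.44 and 11.02 in the competent arrays, against 11.93 to 12.68 in the deficient arrays (adjusted p = 0.123), and again replicate 1 was the nearest to the deficient arrays.

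Genes called in the other tumours of the study were read in each 16.113 array. In a fit of all 26 arrays, 46 of the 4140 genes were raised by IFNγ in MCA313 tumours at 24 or 48 h or in J558L tumours at 24 h (1.11%), and 50 were lowered. Over the 46 the median deviation from the deficient mean was 0.98, 0.63 and 0.79 in the competent arrays, against -0.08 to 0.11 in the deficient arrays. Replicate 1 had the highest median, and 11 of the 46 were called higher with competent T cells. Over the 50 lowered genes the median was -0.47, -0.36 and -0.54 in the competent arrays, against -0.11 to 0.21 in the deficient arrays, and Cdc6 was the only one called lower. Some genes raised in MCA313 tumours at 24 h were called neither in J558L tumours nor with competent T cells. Ctla4, an inhibitory receptor of T cells, had a change of 3.73 in MCA313 tumours at 24 h and -0.31 in J558L tumours, and with competent T cells in 16.113 tumours it read 6.70, 5.79 and 5.58, against 4.97 to 6.30 in the deficient arrays (adjusted p = 0.507). The Fc receptor Fcgr4 had a change of 3.67 in MCA313 tumours at 24 h, 0.46 in J558L tumours and 0.63 ± 0.77 with competent T cells (adjusted p = 0.745). Car4, the carbonic anhydrase of capillary endothelium, had 2.16 in MCA313 tumours at 24 h, 1.59 at 48 h (adjusted p = 0.116) and 0.04 in J558L tumours, and it read 11.84, 11.74 and 11.83 in the competent arrays, below 12.33 to 12.58 in the deficient arrays (adjusted p = 0.0811).

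The response to competent T cells at 120 h was set against that of J558L tumours to 24 h of IFNγ-GFP, which differ in tumour, source and time of IFNγ. The difference between the 2 responses passed the test for 0 of 4140 genes in limma (0% called, lowest adjusted p = 0.195), with 246 at an unadjusted p under 0.05. Igtp had a change of 2.73 in 16.113 tumours and 0.83 in J558L tumours, a difference of 1.90 ± 0.43 (adjusted p = 0.195). Irf1 had 1.83 and 0.46, a difference of 1.38 ± 0.31 (adjusted p = 0.195), and Wars 2.04 and 0.65, a difference of 1.39 ± 0.32 (adjusted p = 0.195). Serpina3f had the largest difference among the risers, 2.75 ± 0.72, with 4.27 in 16.113 and 1.52 in J558L tumours (adjusted p = 0.285). Ifi205 had the smaller change in 16.113 tumours, with 1.46 in 16.113 and 3.17 in J558L tumours (difference -1.71 ± 0.52, adjusted p = 0.403). The risers were chosen by their change in 16.113 tumours, which favours a larger value there. Without competent replicate 1, 22 genes passed this test, and without J558L tumour replicate 2 at 0 h 4 did. Top2a had -3.15 in 16.113 and -1.98 in J558L tumours (adjusted p of the difference = 0.901), and Usp43 had -2.27 in 16.113 and 0.40 in J558L tumours (adjusted p of the difference = 0.21).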

How the data were processed

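Per the labels' protocols, RNA was amplified by the WT Pico method and hybridised to Affymetrix arrays. The authors deposited log2 values per probe set. The tools listed, per the submitters' processing notes, are Affymetrix Expression Console and limma, and the normalization method and genome build are not given in the sources used here. Exact values recurred between arrays within 4 sets of arrays (a median of 1.89% within the 16.113 arrays) and almost never between them, so levels were compared within sets and only differences between them.

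The table held 65535 probe sets, of which 53857 name 1 gene by the platform annotation, 766 several and 10912 none. Of their annotation symbols, 4618 were current in RefSeq (GRCm38.p6), 494 were synonyms and 8 had no match, and merging symbols of the same gene left 5109 genes. The probe set with the highest mean over the 8 arrays stood for a gene, and a gene was kept if it exceeded the array's 50th percentile in at least 3 of the 8 arrays. Group means of the 3 and 5 arrays were compared with limma 3.58.1 (R 4.3.3) on the log2 scale, with moderated two-sided tests and Benjamini-Hochberg adjustment over all 4140 genes at 0.05. The difference between the 16.113 and J558L responses was tested in one model of the 26 arrays and 9 groups. Errors beside differences are standard errors. Probe sets read exons and did not always move together, and background was not measured.

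The members and gene lists were chosen with earlier results of these data known. Named genes are the 15 largest rises and 15 largest falls past the test, up to 4 members of a list past the test or else the 2 with the largest change, 14 check genes, the 12 widest ranges over the competent arrays, the 6 highest and 6 lowest of each competent array where the other 2 differ by at most 0.5, and the 4 highest and lowest loadings. Other genes were named after their values were seen. Fits were tested on simulated data. Alternatives changed the filter, scaling, probe set rule, variance model, array weights and block, or left out arrays; single competent arrays alone and the fit sharing the spread of all arrays were among them. Array columns not used numbered 0.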

Additional observations from a re-analysis of the deposited data

Results flagged for a closer look

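Among the 5 deficient arrays, 9 of 121 named genes had 1 array standing far from the other 4, and chance alone gives such a gap in about 1 in 20 groups. Deficient replicate 2 was high for Ifi207, at 9.14, for Irf1, at 10.90, and for Dtl, at 11.03. Deficient replicate 4 was low for the spindle gene Hmmr, at 7.53, and stood apart for Itga2b, at 7.71, and for Sectm1a, at 5.37. Deficient replicate 5 stood apart for Mthfd1l, at 11.09, for Evi2b, at 7.29, and for Wdr81, at 5.18. The competent arrays, being 3, could not be examined in this way.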

How the results depend on the processing

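The 33 calls became 70 with a stricter filter, 157 with the mean of all probe sets of a gene, 82 with trend and robust estimation, 20 with array weights and 303 with the spread of all 26 arrays shared. Leaving out each array in turn gave 12 to 149 calls, the most without competent replicate 1. Competent replicates 1, 2 and 3 alone gave 3, 133 and 267, with the spread taken from the deficient arrays and the lone array assumed to vary like them. Higher against lower calls were 22 against 11, but 56 against 101 with the mean of probe sets, 37 against 45 with trend and robust estimation, 32 against 38 with the stricter filter and 103 against 200 with the shared spread. With a replicate block 2 genes were called. Same-numbered competent and deficient arrays deviated with correlations of -0.053, -0.051 and -0.028, and differently numbered arrays with -0.071 to 0.123. These values cannot tell whether the numbers pair the samples. The difference from J558L tumours had 0 calls, 1 with the 16.113 and J558L tumour arrays alone, and 0 to 22 with arrays left out. The median range over the competent arrays was 0.703, and 0.587 with the mean of all probe sets. Steap3 turned from -1.72 to 0.77 with the probe set highest over all 26 arrays, and the cause was not tested. Sgpp1 turned from -0.33 to 1.93 in competent replicate 3 alone. This follows from its values of 5.48, 5.22 and 8.74 in the competent arrays, of which replicate 3 stood apart.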
